A study of Mus musculus with 192 samples.

Results

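Most mouse Zfp genes that carry only a number encode proteins with zinc fingers of the C2H2 type. In these fingers paired cysteines and histidines hold a zinc ion, and the finger reads a short stretch of DNA or, in some proteins, RNA. The members were selected on their names and their mean level, not on their proteins. They are the rows whose symbol is Zfp followed by digits, apart from Zfp36 (an RNA decay factor with fingers of another type). Each had a mean raw level of at least 5 CPM (counts per 1000000 counts of a cell) over cells of at least 100000 counts. The rule kept 246 of 374 numbered Zfp rows, a number that includes Zfp36, among 49466 genes of the table. In all, 9451 genes passed the same minimum and are called measured. The level itself chose the members, so their levels are given as a description.

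A large share of these proteins joins an array of fingers to a KRAB domain. The KRAB domain binds the corepressor TRIM28, also called KAP1, which brings the histone methyltransferase SETDB1 and heterochromatin proteins to the bound DNA, chiefly retroelements and imprinted regions. The genes arose by repeated duplication and many lie side by side in the genome. In mouse erythroid cells KAP1 is known to be needed for the removal of mitochondria during maturation. Other members have no KRAB domain and act as activators, as partners of other corepressors, or in splicing, ribosome assembly and mitosis.

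The cells were colony-forming units-erythroid (CFU-E), progenitors close to the start of red cell maturation, and burst-forming units-erythroid (BFU-E), the earlier progenitors that give rise to them. Both were sorted singly with antibodies to CD117, CD71 and CD24 from lineage-depleted fetal liver of C57/Bl6J mice on embryonic day 14.5, and were sequenced by SmartSeq2, which reads whole transcripts. After removal of shallow wells, 89 CFU-E and 92 BFU-E cells were used. Each cell type filled 1 plate, so plate, sequencing lane and cell type cannot be told apart, each cell type is 1 sample, and no test between them was made.

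The 95 CFU-E wells held a median of 999396 counts (range 5825 to 2992101) and the 96 BFU-E wells a median of 1099619.5 (range 6473 to 3864040). Every kept cell was thinned to 100000 counts, at which CFU-E cells had a median of 5838 genes with a count and BFU-E cells 6142.5. The BFU-E plate fell into 38 granulocyte-monocyte-like and 54 erythroid-like cells when clustered without any Zfp gene. Tifab and Ncf1 led the first cluster, and Gm15915 and Mfsd2b the second. Of the markers listed beforehand, the top 10 genes of the first held Csf1r (rank 5) and the lymphoid gene Ighm (rank 9). Those of the second held Ermap (rank 3), Klf1, Add2 and Epor (ranks 8 to 10). Summed over 12 granulocyte and monocyte markers, the level was 5308 CPM in the granulocyte-monocyte-like and 178 CPM in the erythroid-like cells. In the same order, 16 lymphoid markers summed to 586 and 17.6 CPM. The 7 mast cell and basophil markers summed to 157 and 32.6 CPM, and 7 megakaryocyte markers to 135 and 440 CPM. The 12 erythroid markers summed to 12110 and 15860 CPM in the CFU-E clusters of 56 and 30 cells, against 1093 CPM in granulocyte-monocyte-like and 3038 CPM in erythroid-like BFU-E cells. In the CFU-E plate 3 cells carried 11 of 16 lymphoid markers. The main counts are therefore also given for the other 86 CFU-E cells over the erythroid-like BFU-E cells. The plates used the same index pairs for 95 wells. Levels are shares of the counts of a cell and do not give molecules per cell. All intervals are exact 95% intervals for the counting of reads only, with each read taken as independent. PCR copies of a molecule were counted as separate reads, so the intervals are too narrow for molecules. They also leave out the spread between cells.

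Most members, 213 of 246 (86.6%), had lower levels in CFU-E cells, as did 73.5% of all measured genes; with trimmed mean (TMM) scaling the shares were 67.9% and 50.6%. The summed level of all 246 was 5483 CPM (5434.5 to 5531.9) in CFU-E against 9494 CPM (9431.2 to 9557.2) in BFU-E cells, a level 1.73-fold lower (1.71 to 1.75), which was 1.16-fold with TMM and 1.12-fold with median-of-ratios scaling. They took 0.548% of all counts in CFU-E and 0.949% in BFU-E cells. Among single CFU-E cells the summed level had a lowest value of 2610, a median of 5490 and a highest value of 8520 CPM. BFU-E cells ranged from 4420 over a median of 9665 to 15020 CPM. The ranges overlap, and the CFU-E median lies near the low end of the BFU-E range. Granulocyte-monocyte-like BFU-E cells had a median of 10010 CPM (4420 to 14860) and erythroid-like cells 8835 CPM (4540 to 15020). Without the 3 CFU-E cells above, and set against the erythroid-like cells, the summed level was 1.69-fold lower (1.67 to 1.71). Zfp207 alone does not carry this value: without it the summed level was 1.72-fold lower in CFU-E cells.

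The number of members detected differed much less than their level. A CFU-E cell had a count for a median of 89 of the 246 members (66 to 129), and a BFU-E cell for 95.5 (53 to 146). The median cell of either kind thus held reads of a minority of the members at this depth. The number detected followed the number of all genes detected in the cell, with Pearson's r of 0.80 over 89 CFU-E, 0.85 over 38 granulocyte-monocyte-like BFU-E and 0.89 over 54 erythroid-like BFU-E cells. Those points share a plate within each group, and both numbers are read from the same counts. Of the 213 members with a lower level in CFU-E cells, 70 nevertheless had a count in a larger share of CFU-E than of BFU-E cells.

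**Figure D1:**
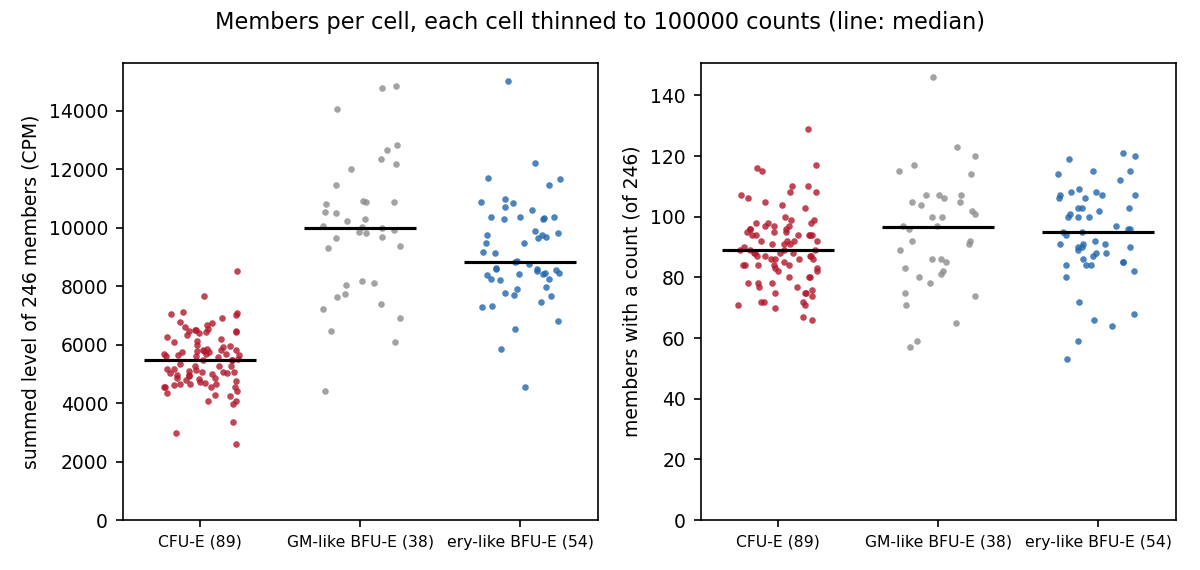
Left, summed level of the 246 members in each cell in CPM; right, number of members with a count in each cell. Each point is 1 cell thinned to 100000 counts, lines are medians, and groups are CFU-E, granulocyte-monocyte-like (GM-like) BFU-E and erythroid-like (ery-like) BFU-E cells; the medians on the left are 5490, 10010 and 8835 CPM, and those on the right 89, 96.5 and 95.

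Gene by gene, the level of 6 members was higher by 2-fold or more in CFU-E cells, 2.44% of the members, where 6.29% of all measured genes were. A level at least 2-fold lower was found for 123 members, 50%, where 34% of all measured genes were so. The median log2 fold of CFU-E over BFU-E, computed on CPM plus 1, was -0.96 for the members and -0.56 for all measured genes. The interval of the fold lay wholly under 1 for 197 members, wholly over 1 for 20, and included 1 for 29. It lay wholly under 1 for 65.5% and wholly over 1 for 20.4% of all measured genes. The shift of all measured genes depends on scaling. With TMM scaling, which sets their median to -0.01, the members had a median of -0.41, with 18 higher and 67 lower against 14.8% and 20.1% of measured genes. With median-of-ratios scaling the members had a median of -0.36, with 19 higher and 64 lower against 16% and 19.1%. Over erythroid-like BFU-E cells, the other 86 CFU-E cells had 7 members higher and 128 lower, against 6.01% and 33.1% of measured genes, with a median of -0.94. Of those, 4 and 113 members were also higher or lower over all BFU-E cells.

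Much of the excess of lower members lies at low levels, where measured genes of every kind were more often lower in CFU-E cells. Among members with a mean raw level of 5 to 10 CPM, 71.9% of 64 were at least 2-fold lower, against 53.7% of other measured genes of that level. At 10 to 20 CPM the shares were 50.7% of 71 members and 49.5% of other genes. At 20 to 50 CPM they were 37.97% of 79 members and 35.2% of others, and at 50 to 100 CPM 26.1% of 23 members and 25.2% of others. Between 10 and 100 CPM the members thus stood close to other genes of their level, whereas with TMM scaling fewer of them were lower at 10 to 20 CPM (22.5% against 32.7% of others). Of the 9 members at 100 CPM or more, 5 were lower, 55.6% against 13% of others, and with TMM scaling 1, 11.1% against 5.52%. A member near the minimum that is low in one plate had to be higher in the other to pass, and the same holds for the other measured genes. Just inside the minimum, Zfp418 (mean raw level 5.03 CPM) had 1.24 CPM in CFU-E and 7.83 CPM in BFU-E cells, and Zfp622 (5.05 CPM) had 2.58 and 7.07 CPM in the same order. Just outside it, Zfp382 (4.91 CPM) had 3.15 CPM in CFU-E and 7.5 CPM in BFU-E cells, and Zfp882 (4.91 CPM) had 3.93 and 5.98 CPM.

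The members were then read by the structure of their proteins, from the coding sequences of GENCODE M21. A KRAB pattern was found in 145 of the 243 members with a complete coding sequence. Of these, 85 (58.6%) were at least 2-fold lower in CFU-E cells and 4 higher, with a median log2 fold of -1.11. Of the 98 members without the pattern, 36 (36.7%) were lower and 2 higher, the median being -0.66, close to the 34% and -0.56 of all measured genes. The KRAB share was also the larger at a mean raw level of 5 to 10 CPM (80.5% of 41 KRAB members against 57.1% of 21 without), at 10 to 20 CPM (55.6% of 45 against 42.3% of 26, but the smaller with TMM scaling, 20% against 26.9%) and at 20 to 50 CPM (47.9% of 48 against 22.6% of 31). At 50 to 100 CPM it was not (22.2% of 9 against 23.1% of 13). Over erythroid-like BFU-E cells the shares were 59.3% of KRAB members and 40.8% of those without, against 33.1% of all measured genes. With TMM scaling 45 KRAB members (31%) were lower and 8 (5.52%) higher. Of members without the pattern 21 (21.4%) were then lower and 10 (10.2%) higher, against 20.1% and 14.8% of all measured genes. The summed levels differed less, with the KRAB members 1.79-fold lower in CFU-E cells (1.76 to 1.82) and those without the pattern 1.68-fold lower (1.65 to 1.71).

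**Figure D2:**
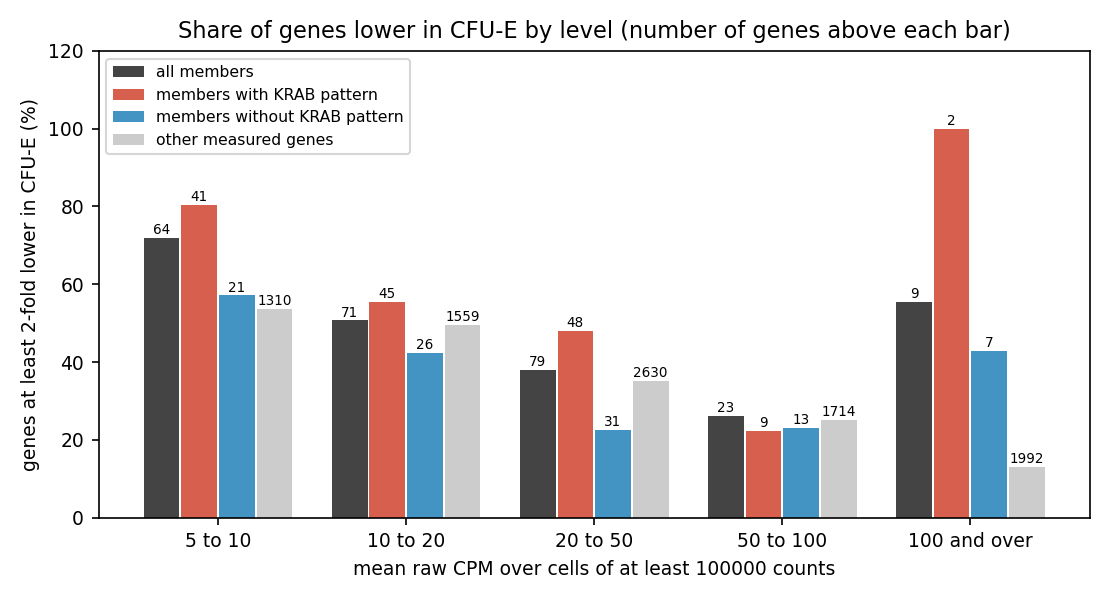
Percentage of genes at least 2-fold lower in CFU-E than in BFU-E cells (vertical axis), by mean raw level in CPM (horizontal axis), for all members, members with and without a KRAB pattern, and other measured genes; the number above each bar is the number of genes in it. Bars of members and other genes are of like height from 10 to 100 CPM, and members with a KRAB pattern stand higher than those without it up to 50 CPM, which at 10 to 20 CPM turns round with TMM scaling.

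The number of fingers ran the same way. Members with 0 to 4 fingers were at least 2-fold lower in 30.6% of 36 cases, those with 5 to 9 in 35.4% of 65, those with 10 to 14 in 57.5% of 87, and those with 15 or more in 67.3% of 55. With TMM scaling the shares were 11.1%, 20%, 32.2% and 38.2% in the same order. The shares of all measured genes, 34% and with TMM scaling 20.1%, lie near or above those of the members with under 10 fingers. KRAB members had a median of 12 fingers and the others 7, with 33 the most in any member, so fingers and KRAB are not separate properties here. The pattern used found no C2H2 finger in Zfp330, Zfp451, Zfp839 and Zfp935. Zfp125, Zfp783 and Zfp939, which are annotated as pseudogenes, had no coding sequence to read. Chromosome 7 carried 58 members, of which 32 were lower and 1 higher, and chromosome 17 carried 37, of which 21 were lower and 1 higher; these shares, 55.2% and 56.8% lower, stand beside 50% of all members and 34% of all measured genes.

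Families named in a related way stand against 34% of all measured genes lower and 6.29% higher, or 20.1% and 14.8% with TMM scaling. Of 27 measured Zbtb genes, which join fingers to a BTB domain, 11 were lower (40.7%) and 1 higher, the median log2 fold being -0.79. With TMM scaling 9 of them (33.3%) were lower and 2 higher, and the median was -0.26. Of 13 Zkscan and Zscan genes, whose proteins carry a SCAN domain, 9 were lower (69.2%) and 0 higher, the median being -1.16, and with TMM scaling 3 (23.1%) were lower, against 20.1% of all measured genes. Trim proteins carry RING and B-box domains in place of C2H2 fingers. Of 25 Trim genes 10 (40%) were lower and 2 (8%) higher, the median being -0.30. With TMM scaling 6 (24%) were lower and 4 (16%) higher, and the median was 0.26. Over erythroid-like BFU-E cells 8 were lower (32%, against 33.1% of all measured genes) and 4 higher (16%, against 6.01%). The median there was -0.04, against -0.56 for all measured genes. These lists hold few genes, and the differences between them and the members were not tested.

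The genes that work with KRAB proteins were described from a list of 25, of which 24 were measured. In CFU-E cells 0 were higher and 10 lower by at least 2-fold (41.7%, against 34% of all measured genes), with a median log2 fold of -0.83. With TMM scaling 2 were lower (8.33%, against 20.1%) and the median was -0.26. Trim28, the KRAB partner itself, had 48.3 CPM in CFU-E and 111 CPM in BFU-E cells. Setdb1, the methyltransferase, had 100.1 CPM in CFU-E and 163 CPM in BFU-E cells, and its stabilising partner Atf7ip had 88.1 and 305 CPM in the same order. Mphosph8, the chromodomain subunit of the HUSH silencing complex, had 10.7 CPM in CFU-E and 44.8 CPM in BFU-E cells.

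Compared per exonic kilobase, the most abundant member was Zfp207 (BuGZ), which loads the checkpoint protein BUB3 at kinetochores. Its level was 54.6 CPM per kb in CFU-E and 104 CPM per kb in BFU-E cells. Zfp706, a small protein with 1 finger, followed with 33.7 CPM per kb in CFU-E and 73.6 CPM per kb in BFU-E cells. These were the only members with a count in every kept cell of both plates. In single CFU-E cells Zfp207 had a median level of 331 CPM and a highest of 773 CPM, against 671 and 1444 CPM in BFU-E cells. Its level over each plate was 363 CPM in CFU-E and 695 CPM in BFU-E cells, 1.91-fold lower (1.83 to 1.997). Zfp706 had 168 CPM in CFU-E and 366 CPM in BFU-E cells, 2.18-fold lower (2.06 to 2.32).

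Zfp422 showed the widest fall among the 12 members most abundant per kilobase. It has 5 fingers and no KRAB pattern, and lies on chromosome 6 (GRCm38). Single CFU-E cells had levels from 0 over a median of 52.7 to 741 CPM, and BFU-E cells a median of 270.3 and a highest value of 1237 CPM. After thinning 70 of 89 CFU-E and 89 of 92 BFU-E cells had a count. Over each plate the level was 66.97 CPM in CFU-E and 292 CPM in BFU-E cells, 4.37-fold lower (3.99 to 4.78). It was 396 CPM in granulocyte-monocyte-like and 219 CPM in erythroid-like BFU-E cells, so CFU-E cells were below both. Some of its sequence, 7.64% of 50-base windows, also occurs in other transcripts, mostly its pseudogene. Of the other members in this set, Zfp62 (63.2 CPM in CFU-E against 181 CPM in BFU-E cells), Zfp35 (32.9 against 101 CPM) and Zfp263 (57.1 against 127 CPM) were also more than 2-fold lower. Zfp869 (49.6 against 84.7 CPM) and Zfp330 (112 against 137 CPM) were lower by less than 2-fold, and the log2 fold of Zfp330, -0.28, is 0.28 with TMM scaling. Zfp830, a splicing factor, had 63.6 CPM in CFU-E and 45 CPM in BFU-E cells. Zfp692 had 45.6 and 43.6 CPM in the same order, and Zfp637 had 50.5 and 44.5 CPM, and for both the interval of the fold included 1.

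**Figure D3:**
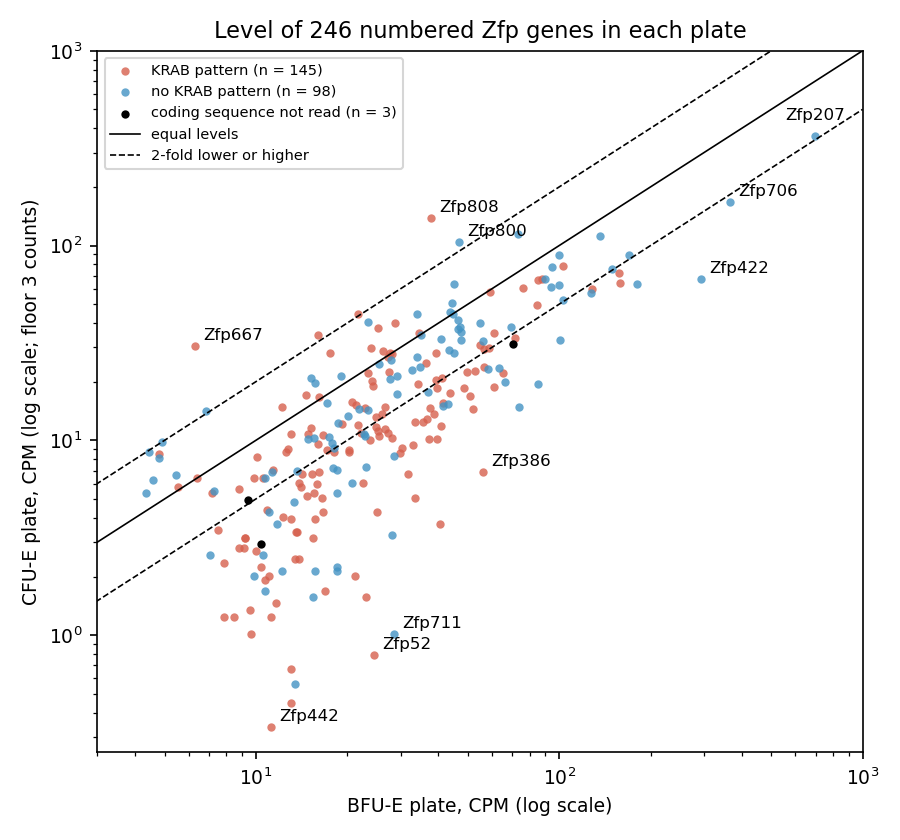
Level of each of the 246 members in CFU-E cells (vertical) against BFU-E cells (horizontal), in CPM on log axes, coloured by KRAB pattern; the solid line marks equal levels and the dashed lines a 2-fold difference. Most points lie below the solid line; Zfp667, Zfp808 and Zfp800 lie above the upper dashed line, and Zfp442, with 0 counts in CFU-E cells, is drawn at the floor of 3 counts.

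Among the 174 members that reached 10 CPM and a count in 25% of cells in the plate with the higher level, Zfp667 had the highest log2 fold, 2.10. It is a KRAB protein with 14 fingers. Single CFU-E cells had levels from 0 over a median of 18.3 to 131 CPM, and BFU-E cells from 0 over a median of 0 to 104 CPM. A count was found in 53 of 89 CFU-E and 12 of 92 BFU-E cells, so the ranges overlap while the share of positive cells differs. Its plate level was 30.3 CPM in CFU-E and 6.30 CPM in BFU-E cells, 4.81-fold higher (3.61 to 6.51). The level was 5.79 CPM in granulocyte-monocyte-like and 6.67 CPM in erythroid-like BFU-E cells. None of its 50-base windows occurs in another transcript. The log2 fold was 1.06 in cells with odd and 2.98 in cells with even label numbers.

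Zfp808, a KRAB protein with 22 fingers, had the next highest log2 fold, 1.85. Single CFU-E cells had levels from 0 over a median of 57.01 to 893 CPM, and BFU-E cells from 0 over a median of 1.28 to 481 CPM. Its plate level was 138 CPM in CFU-E and 37.7 CPM in BFU-E cells, 3.67-fold higher (3.25 to 4.14). Within the BFU-E plate it was 61.8 CPM in granulocyte-monocyte-like and 20.7 CPM in erythroid-like cells. Zfp934, a neighbour on chromosome 13, had 34.6 CPM in CFU-E and 15.98 CPM in BFU-E cells. Zfp808 has 34.4% of its 50-base windows in Zfp934, and Zfp934 has 36.8% of its own in Zfp808, so reads may be shared between them and both levels are uncertain. Over erythroid-like BFU-E cells Zfp934 no longer reached 2-fold, with a log2 fold of 0.65.

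Zfp800, with 6 fingers and no KRAB pattern, had levels from 0 over a median of 68.5 to 402 CPM in single CFU-E cells and from 0 over a median of 28.4 to 211 CPM in BFU-E cells. Its plate level was 104 CPM in CFU-E and 46.7 CPM in BFU-E cells, 2.23-fold higher (1.99 to 2.51), with 78 of 89 CFU-E and 67 of 92 BFU-E cells positive. Zfp944 (44.6 CPM in CFU-E against 21.7 CPM in BFU-E cells) and Zfp219 (14.2 against 6.85 CPM) were the remaining members at least 2-fold higher. Zfp944 had a log2 fold of 0.75 over erythroid-like BFU-E cells, under 2-fold, whereas Zfp219 had 1.0. The size of these differences was not stable between subsets of cells. In cells with even label numbers Zfp800, Zfp944, Zfp219 and also Zfp934 were each under 2-fold higher. In cells with odd ones each was over 2-fold higher, and the values stand in the last section. Zfp511 (40.7 CPM in CFU-E against 23.4 CPM in BFU-E cells) and Zfp655 (115 against 73.2 CPM) had higher levels by less than 2-fold.

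At the other end, Zfp711 had the lowest log2 fold, -3.88. It is an X-linked factor with 11 fingers whose human counterpart is known to recruit the histone demethylase PHF8. Single CFU-E cells had levels from 0 over a median of 0 to 51.6 CPM, and BFU-E cells from 0 over a median of 0 to 409 CPM. A count was found in 3 of 89 CFU-E and 28 of 92 BFU-E cells. Its plate level was 1.01 CPM in CFU-E and 28.6 CPM in BFU-E cells, 28.3-fold lower (14.7 to 62.5). It was 43.4 CPM in granulocyte-monocyte-like and 18.2 CPM in erythroid-like BFU-E cells, and the fall over the erythroid-like cells alone was 17.3-fold.

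Zfp52, a KRAB protein with 14 fingers, had 0.787 CPM in CFU-E and 24.6 CPM in BFU-E cells, 31.2-fold lower (14.9 to 78.6), with a count in 3 of 89 CFU-E and 25 of 92 BFU-E cells. Unlike Zfp711 it was even between the BFU-E groups, at 26.1 CPM in granulocyte-monocyte-like and 23.5 CPM in erythroid-like cells. Zfp386, a KRAB protein with 9 fingers, had 6.85 CPM in CFU-E and 56.1 CPM in BFU-E cells, 8.18-fold lower (6.27 to 10.9). Its single-cell median was 0 CPM in CFU-E and 16.9 CPM in BFU-E cells, and 17 of 89 CFU-E against 51 of 92 BFU-E cells had a count. Zfp111 had 3.71 CPM in CFU-E and 40.3 CPM in BFU-E cells, 10.9-fold lower (7.61 to 16.04), and here the erythroid-like cells held the higher BFU-E level, with 16.8 CPM in granulocyte-monocyte-like and 56.9 CPM in erythroid-like cells. Zfp275, Zfp319, Zfp629 and Zfp945 completed the 8 lowest, 6.64-fold to 8.66-fold lower in CFU-E cells. Zfp442, named after its values were seen, had 0 counts among thinned CFU-E cells and 11.2 CPM in BFU-E cells, at least 33.2-fold lower against the floor of 3 counts over the CFU-E cells (0.337 CPM).

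**Figure D4:**
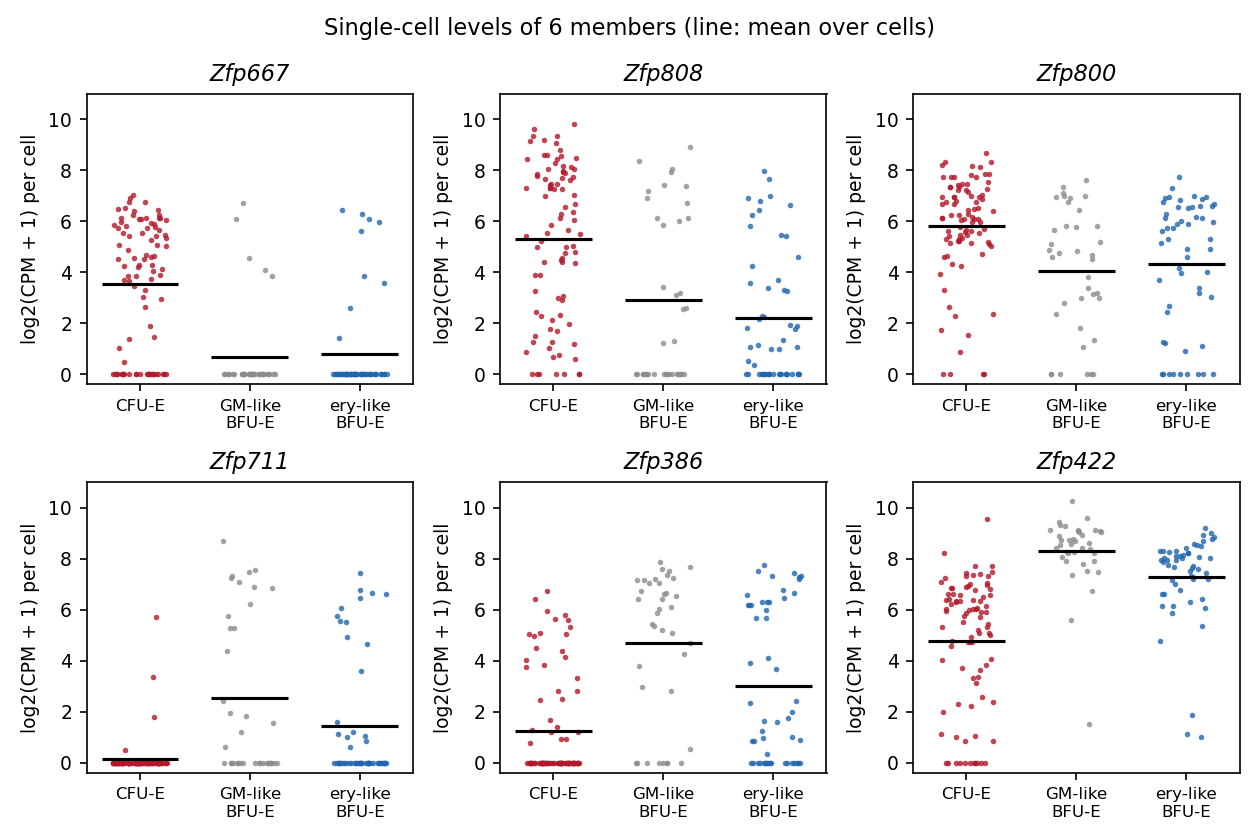
Level of 6 members in single cells, as log2 of CPM plus 1 from the full counts of each cell, in CFU-E, granulocyte-monocyte-like (GM-like) BFU-E and erythroid-like (ery-like) BFU-E cells; points are cells and lines are means over cells. Zfp667, Zfp808 and Zfp800 have more CFU-E cells at high levels, while nearly all CFU-E cells are at 0 for Zfp711 and many for Zfp386.

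Promoter sequences are shown for 2 members with high and 2 with low folds, since these genes lie at opposite ends of the same family. They are the 250 bases before the RefSeq start in GRCm38.p6, all on the plus strand. Capitals mark GATAA, a core motif of the erythroid factor GATA1, or CACCC, the core bound by KLF1, on either strand (TTATC and GGGTG as their reverse complements); where a line has no capitals neither motif is in it. The regions are chr7:6286330-6286579 for Zfp667, chr13:62129640-62129889 for Zfp808, chr17:21535289-21535538 for Zfp52 and chr12:116047474-116047723 for Zfp386.
Zfp667: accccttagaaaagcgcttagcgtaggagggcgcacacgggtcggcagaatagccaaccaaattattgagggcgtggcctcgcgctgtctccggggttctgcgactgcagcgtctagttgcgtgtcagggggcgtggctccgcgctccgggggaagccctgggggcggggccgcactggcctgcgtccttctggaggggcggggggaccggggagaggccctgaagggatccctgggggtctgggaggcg
Zfp808: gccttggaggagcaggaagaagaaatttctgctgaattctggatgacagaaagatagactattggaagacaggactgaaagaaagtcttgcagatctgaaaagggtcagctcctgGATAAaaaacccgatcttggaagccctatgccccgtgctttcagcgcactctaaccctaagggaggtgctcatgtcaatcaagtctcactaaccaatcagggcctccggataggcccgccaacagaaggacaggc
Zfp52: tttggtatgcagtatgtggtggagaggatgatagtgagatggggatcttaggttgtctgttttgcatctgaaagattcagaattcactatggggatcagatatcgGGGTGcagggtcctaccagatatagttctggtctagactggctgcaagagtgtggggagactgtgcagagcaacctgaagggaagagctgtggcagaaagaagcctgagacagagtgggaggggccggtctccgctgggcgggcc
Zfp386: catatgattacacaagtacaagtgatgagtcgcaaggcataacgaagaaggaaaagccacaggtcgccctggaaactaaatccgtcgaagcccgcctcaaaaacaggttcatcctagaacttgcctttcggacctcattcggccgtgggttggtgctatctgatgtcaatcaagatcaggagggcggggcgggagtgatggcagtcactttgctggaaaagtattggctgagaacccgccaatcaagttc
GATAA occurs in the Zfp808 window and CACCC, as GGGTG, in the Zfp52 window. Windows of Zfp800 and Zfp111 were also read but are not shown. Zfp800, higher in CFU-E cells, has GATAA in 1 of 2 promoters and CACCC in both. Zfp111, lower in CFU-E cells, has GATAA in 1 of 2 promoters and CACCC in neither. Both motifs thus occur at both ends of the folds. The Zfp667 window holds 22 CpG dinucleotides, that of Zfp386 12, that of Zfp808 5 and that of Zfp52 4. The RefSeq table held 251 promoters for 203 of the members. GATAA was in 16.3% of them and in 22.6% of 32851 promoters of all genes, CACCC in 50.6% and 52%, and GGGCGG (reverse complement CCGCCC), the core bound by SP1, in 42.2% and 32.7%. Member promoters had a median of 11 CpG dinucleotides, against 6 for all promoters. The 32851 promoters were not limited to measured genes, whereas the members had passed a minimum level. Promoters of measured genes alone were not compared, so these differences may not be particular to the members. Promoters of members at least 2-fold lower in CFU-E cells had a median of 8 CpG and GATAA in 18.9%, and those of the other members a median of 13 and GATAA in 14%. A match is a match of letters, not a bound site.

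By role, 11 of 12 listed members that act on RNA, ribosomes, mitosis or ubiquitin were measured. Of these 3 (27.3%, against 34% of all measured genes) were at least 2-fold lower and 0 higher, with a median log2 fold of -0.91. With TMM scaling 1 was lower (9.09%, against 20.1%) and 2 higher (18.2%, against 14.8%). Zfp451, a SUMO ligase, had 19.4 CPM in CFU-E and 85.1 CPM in BFU-E cells, 4.38-fold lower (3.71 to 5.19). Zfp326, which couples splicing to transcription in the DBIRD complex, had 23.3 CPM in CFU-E and 58.4 CPM in BFU-E cells. Zfp622, a factor of 60S ribosome assembly, had 2.58 CPM in CFU-E and 7.07 CPM in BFU-E cells. The RNA-binding proteins Zfp106 and Zfp638 had 89.7 and 75.6 CPM in CFU-E cells, against 170 and 149 CPM in BFU-E cells. The ubiquitin ligase Zfp91 had 32.7 CPM in CFU-E and 47.3 CPM in BFU-E cells, a log2 fold of -0.52 that is 0.04 with TMM scaling. In the list 3 were higher in CFU-E cells by less than 2-fold, namely Zfp830, Zfp346 (binds double-stranded RNA; 44.3 against 34.02 CPM) and Zfp598 (marks collided ribosomes; 8.09 against 4.78 CPM).

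Of 18 listed DNA-binding factors and corepressor partners without KRAB, 16 were measured. Of these 5 (31.3%, against 34%) were at least 2-fold lower and 1 (Zfp219) higher (6.25%, against 6.29%), with a median log2 fold of -0.67. With TMM scaling 2 were lower (12.5%, against 20.1%) and 1 higher (6.25%, against 14.8%). Zfp521, a factor of stem and early progenitor cells, had 0.562 CPM in CFU-E and 13.5 CPM in BFU-E cells, 23.99-fold lower (10.01 to 75.2). Only 2 of 89 CFU-E cells had a count for it, against 19 of 92 BFU-E cells, and its level was like in granulocyte-monocyte-like and erythroid-like BFU-E cells, 12.4 and 14.3 CPM. Zfp292 had 20 CPM in CFU-E and 66.5 CPM in BFU-E cells, 3.33-fold lower (2.81 to 3.95). Zfp281, a factor known from pluripotent cells, had 15.3 CPM in CFU-E and 43.2 CPM in BFU-E cells, 2.82-fold lower (2.32 to 3.46). Zfp217, a partner of CoREST and LSD1, had 10.6 CPM in CFU-E and 22.8 CPM in BFU-E cells. Zfp687, found with ZMYND8, had 4.83 CPM in CFU-E and 13.4 CPM in BFU-E cells. Zfp410, whose human counterpart represses fetal globin through CHD4, had 89.8 CPM in CFU-E and 99.6 CPM in BFU-E cells, 1.11-fold lower (1.01 to 1.22), with a log2 fold of -0.15 that is 0.42 with TMM scaling. Chd4, the target gene of that factor, had 48.8 CPM in CFU-E and 108 CPM in BFU-E cells. Zfp148, which binds GC-rich promoters, had 77.2 CPM in CFU-E and 94.8 CPM in BFU-E cells, and its log2 fold of -0.29 is 0.27 with TMM scaling.

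Of 10 listed silencers of imprinted or retroviral DNA, 6 were measured, 1 of them (16.7%, against 34%) at least 2-fold lower and 0 higher, with a median log2 fold of -0.80. Over erythroid-like BFU-E cells 3 were lower (50%, against 33.1% of all measured genes), and with TMM scaling 0 (against 20.1%). Zfp445, which keeps methylation at imprinted regions, had 72.4 CPM in CFU-E and 157 CPM in BFU-E cells, 2.17-fold lower (1.98 to 2.39), with a count in 80 of 89 CFU-E and 78 of 92 BFU-E cells. Zfp809, which silences retroviral DNA, had 19.6 CPM in CFU-E and 34.2 CPM in BFU-E cells. Zfp568, which represses a placental Igf2 transcript, had 28.7 CPM in CFU-E and 26.2 CPM in BFU-E cells, and the interval of its fold (0.914 to 1.31) included 1. Zfp932 (30.8 CPM in CFU-E against 55 CPM in BFU-E cells) has 44.7% of its 50-base windows in other transcripts, so its level is uncertain. Zfp110 (66.9 against 85.1 CPM) and Zfp369 (8.88 against 17.2 CPM) were also lower by less than 2-fold, and the log2 fold of Zfp110, -0.34, is 0.22 with TMM scaling. Zfp57, the other imprint factor of the list, had a mean raw level of 0.0389 CPM and was not a member.

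Within the BFU-E plate the members differed between the groups about as often as measured genes at large. In granulocyte-monocyte-like over erythroid-like cells 23 (9.35%) were at least 2-fold higher and 24 (9.76%) lower, against 11.4% and 9.69% of measured genes. The median log2 fold was 0.01, against -0.03 for all measured genes. The summed level was 9955 CPM in granulocyte-monocyte-like and 9170 CPM in erythroid-like cells, 1.09-fold higher (1.07 to 1.1). The members with the widest differences there, named after their values were seen, included Zfp608, with 46.3 CPM in granulocyte-monocyte-like and 6.67 CPM in erythroid-like cells. Its count was present in 26 of 38 granulocyte-monocyte-like and 8 of 54 erythroid-like cells. Zfp948 ran the other way, with 2.37 CPM and 4 of 38 positive granulocyte-monocyte-like cells against 23.5 CPM and 21 of 54 positive erythroid-like cells. Both had low levels in CFU-E cells, 7.30 CPM for Zfp608 and 5.17 CPM for Zfp948.

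Runs of neighbouring genes differed in how alike their members were. With gaps of at most 300000 bases, 15 runs of 4 or more members held 108 members, of which 63 (58.3%) were at least 2-fold lower in CFU-E cells and 2 higher, with a median log2 fold of -1.09. Of the 138 members outside such runs 60 (43.5%) were lower and 4 higher, the median being -0.83, where 34% of all measured genes were lower and 6.29% higher. The run of 18 members on chromosome 17 from Zfp677 to Zfp946 (21383748 to 22456689) spanned log2 folds from -3.84 for Zfp52 to 1.0 for Zfp944. The run of 13 on chromosome 13 from Zfp712 to Zfp273 (67038596 to 67827002) was more even, with 11 lower members and a median of -1.28. All 10 members of the run on chromosome 17 from Zfp871 to Zfp414 (32765496 to 33631779) had folds below 0, from -2.10 to -0.48, and the 4 of the run on chromosome 8 from Zfp868 to Zfp866 (69610857 to 69791178) lay close together, from -1.05 to -0.76. On chromosome 7 the run from Zfp444 to Zfp28 (6131491 to 6396915) held Zfp667, at 2.10, beside 3 members that were at least 2-fold lower. Reads can be shared between genes alike in sequence: 45 of the 246 members share at least 10% of their 50-base windows with another gene, and their levels may include reads of that gene or lack some of their own.

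**Figure D5:**
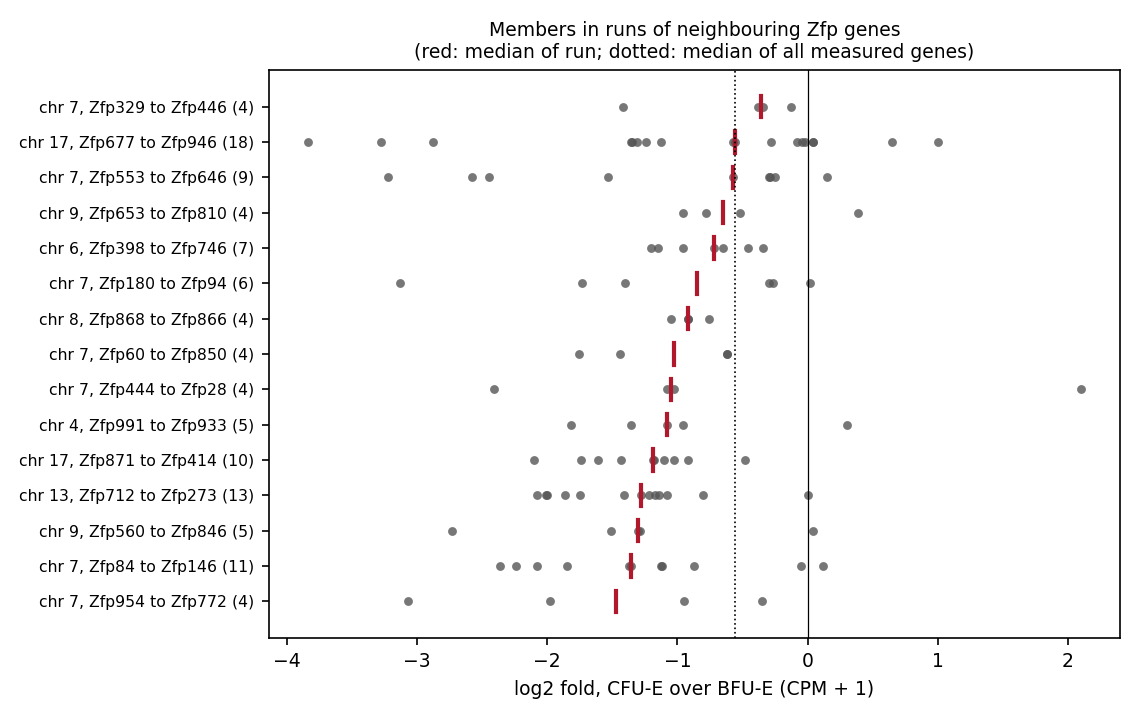
Log2 fold of CFU-E over BFU-E (CPM plus 1, horizontal axis) for members in 15 runs of neighbouring genes, 1 run per row with its chromosome, first and last member and number of members; grey points are members, red bars the median of the run and the dotted line the median of all measured genes (-0.56). Run medians lie from -1.47 to -0.36 and the points of most runs are widely spread, while those of the runs on chromosomes 6 and 8 lie closest together.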

How the data were processed

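Polyadenylated RNA of single cells was amplified by SmartSeq2 with Nextera XT, per the labels' protocols. The authors deposited raw read counts for each gene; the submitters' processing notes name STAR 2.4, featureCounts and the GRCm38 build. Whether strand was used and how reads with several positions were treated is not given in the sources used here. Of the members, 76 share exon bases with another gene, and their reads cannot be told apart from that gene's. Of 192 columns 191 matched a cell by name; the remaining 1 was left aside.

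Kept cells had 100000 or more counts and 2000 or more genes (6 CFU-E and 4 BFU-E cells left out). They were thinned without replacement to 100000 counts (seed 1) and summed per plate to 8900000 counts for CFU-E and 9200000 for BFU-E cells. Levels are counts of these sums per 1000000 (CPM), given with exact Poisson intervals, and folds carry exact conditional binomial intervals. Log2 folds use CPM plus 1. The floor is 3 counts over a group, 0.337 CPM in CFU-E and 0.326 CPM in BFU-E cells. Single-cell levels use the full counts of each cell, and shares of positive cells the thinned ones. Cells are not replicates, so no test was made. Wells held singly sorted cells and doublets were not called. Ward clustering within each plate used 10 principal components from 1000 variable genes, Zfp genes left out; the CFU-E plate had no separated clusters (highest mean silhouette 0.147, against 0.322 in the BFU-E plate). Finger numbers and the KRAB pattern were read by letter patterns from GENCODE M21 coding sequences, and shared sequence from 50-base windows. Calculations used Python 3 with numpy, pandas, scipy and scikit-learn, and edgeR for TMM factors. The fold calculation was tested on simulated data.

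Named members were the 12 with the highest level per exonic kilobase, the 8 at each end of the log2 folds among members with at least 10 CPM and a count in at least 25% of cells of the higher plate, and the members of the role lists. The members and lists were chosen with earlier results of these data known. Alternatives covered the cell filter, thinning, scaling, pseudocount, member minimum, fold, label numbers and the cells of other types.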

Additional observations from a re-analysis of the deposited data

How the results depend on the processing

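TMM and median-of-ratios scaling gave 18 and 19 members higher in CFU-E cells by 2-fold or more in place of 6, 67 and 64 lower in place of 123, a median log2 fold of -0.41 and -0.36 in place of -0.96, and a summed level with a log2 fold of -0.22 and -0.16 in place of -0.79. With raw counts summed without thinning 2 members were higher, and with a 1.5-fold limit 13. With a minimum of 20 CPM there were 41 lower members of 111, a median of -0.75, a summed log2 fold of -0.71, and a median of 63 members detected per CFU-E and 62 per BFU-E cell. Thinning to 50000 counts lowered the number detected to 73 per CFU-E cell. The summed log2 fold was -0.73 in cells with odd and -0.86 in cells with even label numbers, and -0.76 when the 3 CFU-E cells with most lymphoid markers and the granulocyte-monocyte-like BFU-E group were left out. The cause of these shifts was not tested, except that fewer members and counts lower the numbers detected. No named member with a 2-fold difference changed direction under the alternatives run. With TMM 8 and with median-of-ratios scaling 10 of the 56 named members changed sign, each of them under 2-fold without scaling. In cells with even label numbers the log2 fold of Zfp934 was 0.12, of Zfp944 0.45, of Zfp800 0.47 and of Zfp219 0.62, against 1.89, 1.61, 1.86 and 1.16 in cells with odd ones. No paired analysis was possible because the numbers in the labels only count wells and each cell type is 1 sample. Depth limits single cells, where a thinned cell can miss a member at a low level.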
